A study of Mus musculus with 6 samples.

Results

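K49A-only regions are places in the genome where at least 1 K49A library had an enriched region (a peak) and none of the 4 wild-type (WT) libraries had one. They were found by merging the intervals of the 6 peak lists wherever these overlapped or touched, and by keeping the merged regions that held a K49A peak and no WT peak. Chromosome 5 from 14 to 16 Mb was left out. This gave 449 regions of 44630 outside that stretch, or 1.01% of them, against 795 K49A regions that also held a WT peak. Only 7 of the 449 were called in both K49A libraries, 122 were called in K49A 1 alone and 320 in K49A 2 alone. The regions were chosen by their presence in the K49A peak lists and their absence from the WT peak lists, so their counts and strengths describe the choice and are not tested.

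The libraries were made from sperm of the epididymis and vas deferens. The 2 K49A libraries came from mice with a lysine-to-alanine substitution in protamine 1, and the 4 WT libraries from wild-type C57BL6 mice. The design text calls the libraries of a genotype biological replicates, and the age of the mice and the number of animals behind a library were not given in the sources used. The label sperm could not be checked against marker genes, because lists of DNA regions hold no expression.

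Protamines are small basic proteins that take the place of most histones while the spermatid nucleus condenses. A minority of sites keeps nucleosomes, and micrococcal nuclease (MNase), which cuts open DNA and spares DNA wrapped around histones, is used to map them. In mouse sperm such sites have been described at promoters of developmental and housekeeping genes as well as at repeats, and how regular their placement is has been debated. K49A-only regions bear on the question of whether MNase gives peaks in the mutant at sites where none was called in the wild type. The lists hold no fragment lengths, so a peak alone does not show a nucleosome.

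The sequence under most K49A-only regions is not shown here, because no genome of the files' build was at hand. Of 32851 promoter windows of RefSeq (GRCm38.p6, 250 bases before to 50 after a gene's start), a K49A-only region reached a single one, that of the predicted gene Gm52742 on the plus strand (chr4:63395064-63395363). It is shown because it is the one promoter among the 449 regions. The 25 bases in capitals lie under a K49A 2 peak that ran on from chromosome 4, 63395339 to 63395658.
Gm52742 promoter: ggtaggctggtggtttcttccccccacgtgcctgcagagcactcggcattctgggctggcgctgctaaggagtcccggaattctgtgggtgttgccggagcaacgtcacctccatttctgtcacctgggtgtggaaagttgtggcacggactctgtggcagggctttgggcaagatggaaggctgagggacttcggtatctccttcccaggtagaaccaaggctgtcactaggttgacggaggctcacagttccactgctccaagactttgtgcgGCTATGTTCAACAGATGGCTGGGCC
This window was 58.0% G and C and held 10 CG steps, where the median of all promoter windows was 52.7% and 7. The peak was weak, with a −log10 q of 1.11, and its midpoint lay in the body of Akna, which encodes an AT-hook protein. The nearest WT peak was 9559 bp away. In contrast, the promoter windows touched by any peak numbered 28 in K49A 1 and 25 in K49A 2, against 4659, 7862, 8720 and 9393 in WT 1 to 4.

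The 6 lists differed widely in length, which bears on every count of absence. K49A 1 held 700 peaks and K49A 2 held 1017, against 11313, 20458, 22237 and 27903 in WT 1 to 4. All lists ended at nearly the same −log10 q, from 1.00 to 1.04. That limit fell at a lowest −log10 p of 4.73 and 4.55 in K49A 1 and 2, and of 3.75, 3.48, 3.41 and 3.32 in WT 1 to 4, so a site needed a stronger p to be listed in K49A. Each list also lacked some of its peak numbers, 82 and 87 in the K49A lists and 83 to 88 in the WT lists. No WT number was absent around 439 of the 449 regions, and around 4 of them a number was absent in all 4 WT lists, and there a WT peak removed before deposit cannot be told apart from one that was never called.

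The K49A-only peaks were the weak and narrow end of the K49A lists. Outside the chromosome 5 stretch they were 129 of 655 peaks in K49A 1 (19.7%) and 327 of 947 peaks in K49A 2 (34.5%). The authors' fold enrichment had a median of 3.51 in the 122 regions of K49A 1 alone and of 2.98 in the 320 regions of K49A 2 alone, with ranges of 2.52 to 4.27 and 1.92 to 4.74. K49A peaks shared with WT had medians of 3.80 in K49A 1 and 3.38 in K49A 2 and reached 30.5 and 30.3. The fold is relative to a library's own background, so it is read within a list. The shared peaks thus lay higher at the median and had a long upper tail that the K49A-only peaks lacked.

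The −log10 q differed in the same direction. Its median was 1.83 in the regions of K49A 1 alone and 1.74 in those of K49A 2 alone, where the shared K49A peaks had 3.42 and 3.93. The highest values were 17.1 and 9.36 in the K49A-only regions, and 932 and 1232 in the shared K49A peaks. Counting both-library regions in, 119 of the 129 K49A-only peaks of K49A 1 and 298 of the 327 of K49A 2 had a −log10 q under 3. By rank, 1 K49A-only peak was among the top 100 of the K49A 1 list and 0 among the top 100 of the K49A 2 list. Most ranked below the midpoint of their own list, 115 of 129 (89.1%) in K49A 1 and 286 of 327 (87.5%) in K49A 2. Median widths were 216 and 238 bp in the regions of K49A 1 alone and of K49A 2 alone, near the lower limit of 200 bp, against 318 and 332 bp in the shared K49A peaks.

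**Figure D1:**
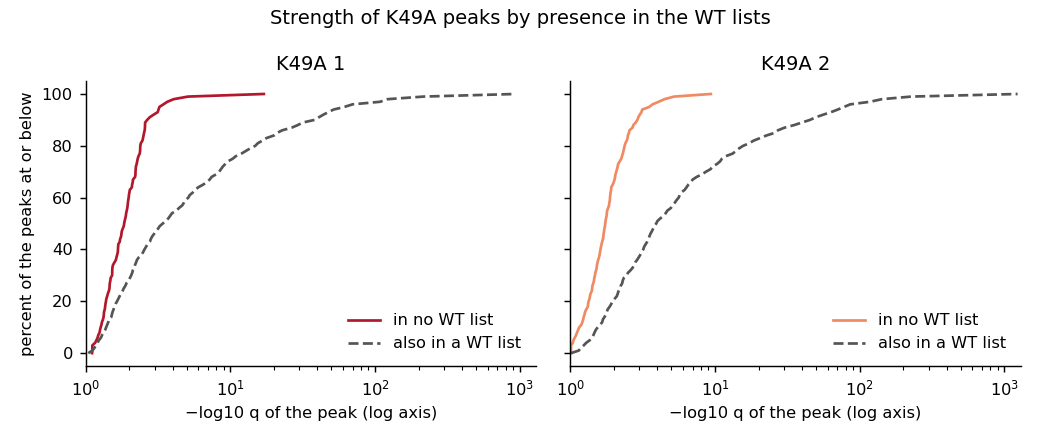
Cumulative share of K49A peaks (y axis, percent) at or below a −log10 q (x axis, log scale), for K49A 1 (left) and K49A 2 (right). Solid lines are peaks in no WT list and dashed lines peaks also in a WT list; the solid lines end at 17.1 and 9.36, while the dashed lines run to 932 and 1232.

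How often a K49A peak was missing from WT depended on its strength. Of peaks with a −log10 q from 1 to 1.5, 38 of 111 (34.2%) in K49A 1 and 103 of 158 (65.2%) in K49A 2 were in no WT list. From 2 to 3 these shares were 29.6% and 44.3%, and from 3 to 5 they were 10.5% and 17.6%. From 5 to 20 there were 2 of 131 peaks (1.53%) in K49A 1 and 4 of 166 (2.41%) in K49A 2. At 20 and above 0 of 85 and 0 of 108 were absent, with upper exact 95% limits of 4.25% and 3.36%. Every K49A peak of that strength outside the chromosome 5 stretch therefore shared its region with a WT peak.

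Private peaks were found in the WT lists as well. To treat the libraries alike, each peak was looked up in 3 WT lists, which for a WT library were the other 3 and for a K49A library were each set of 3 in turn, averaged. Over all strengths, 22.3% of K49A 1 peaks and 37.7% of K49A 2 peaks were absent from 3 WT lists, against 14.4, 25.2, 26.4 and 48.3% in WT 1 to 4. At a −log10 q from 1 to 1.5 the shares were 37.6 and 68.7% in K49A 1 and 2, against 28.7, 42.3, 46.1 and 68.1% in WT 1 to 4. From 3 to 5 they were 13.5 and 22.9%, against 1.03, 5.66, 6.33 and 19.8%. Both K49A libraries thus lay within the WT range over all strengths, where only WT 4 exceeded K49A 2. In each class from 1.5 to 20, however, both lay above WT 1, 2 and 3. From 2 to 3 the shares were 33.5 and 47.7% in K49A 1 and 2, against 8.17, 19.6, 22.6 and 49.4% in WT 1 to 4. K49A 2 lay just above WT 4, the highest WT library, in the classes from 1 to 1.5, from 1.5 to 2 and from 3 to 5. These shares use the measure that chose the regions and are given as a description.

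**Figure D2:**
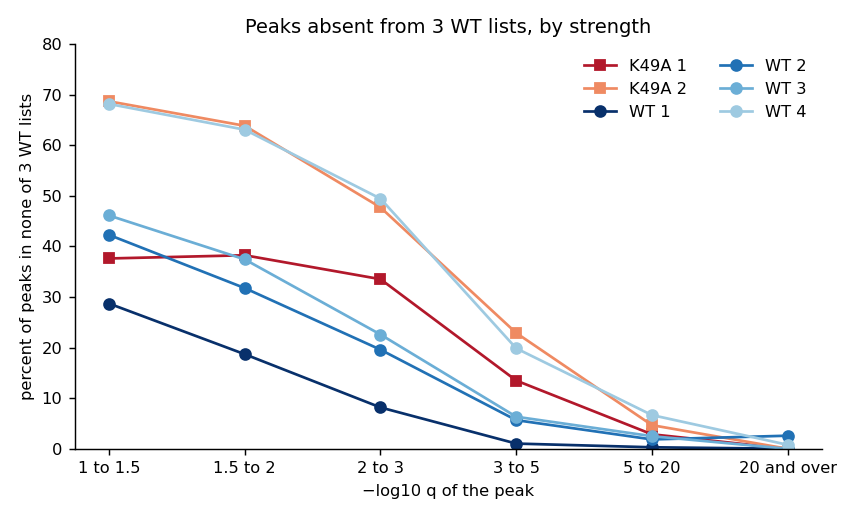
Percent of peaks absent from 3 WT lists (y axis) by −log10 q class (x axis), 1 line per library, with squares for K49A and circles for WT. The line of K49A 2 runs close to that of WT 4 (68.7 and 68.1% in the weakest class). K49A 1 lies among the WT lines in the weakest class and between WT 3 and WT 4 from 1.5 to 20. All lines fall toward 0 with strength.

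Seen as merged regions, the part of a library's list that no other library shared was 18.9% of 646 regions in K49A 1 and 34.3% of 933 regions in K49A 2. It was 14.5, 25.2, 26.6 and 48.7% in WT 1 to 4, with 1615, 5093, 5814 and 13411 regions. The deposited names of the lists use a common pattern for K49A 1 and WT 1 and another for K49A 2 and WT 4, and the share was lower in the first of these pairs and higher in the second. What the names stand for was not stated in the labels.

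The K49A-only peaks were seldom found in the other K49A library. The 7 both-library regions made up 5.43% of the 129 peaks of K49A 1 (exact 95% interval 2.21 to 10.9%) and 2.14% of the 327 of K49A 2 (0.865 to 4.36%). Among K49A peaks shared with WT, 334 of 526 (63.5%) and 331 of 620 (53.4%) were also in the other K49A list. With a −log10 q under 3 in both classes, the counts were 5 of 119 K49A-only peaks (4.20%) against 80 of 244 shared peaks (32.8%) in K49A 1. In K49A 2 they were 5 of 298 (1.68%) against 49 of 233. By these counts, K49A-only peaks recurred less often than shared peaks, also among weak peaks. The 2 classes are set by presence in WT, the measure that chose the regions. The counts and intervals therefore describe peaks within these libraries and are not a test over animals.

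The 7 regions called in both K49A libraries were spread over chromosomes 1, 3, 4, 5, 8 and 12. The strongest lay on chromosome 3, 159939346 to 159939557, and was 212 bp long. Its fold was 4.37 in K49A 1 and 3.38 in K49A 2, and its −log10 q was 4.22 and 3.04. It sat 679 bp past the finish of Wls, which encodes the membrane protein that carries Wnt ligands to the cell surface. No gene or peak of any list reached beyond it on chromosome 3, so all its WT neighbours lay on the same side. The nearest WT peaks were 98380, 98520, 98177 and 98734 bp away in WT 1 to 4, so this was the both-library region farthest from any WT peak.

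On chromosome 8 there were 2 both-library regions. The first, from 20049209 to 20049418, lay in the pseudogene Gm20778 with folds of 4.04 in K49A 1 and 3.38 in K49A 2 and −log10 q of 3.26 and 3.00. The second, from 20440884 to 20441196, lay 77681 bp from Gm15319, with folds of 3.52 and 3.09 and −log10 q of 1.78 and 2.00. Both had WT peaks in their surroundings, the nearest at 6890 bp in WT 2 and at 3610 bp in WT 1.

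The region on chromosome 1, from 85555322 to 85555570, overlapped an end of Gm7592, a predicted gene beside Sp110 and Sp140, which encode nuclear body proteins of immune cells. Its folds were 3.81 in K49A 1 and 3.29 in K49A 2, its −log10 q 2.58 and 2.72, and the nearest WT peak was 5145 bp away in WT 4. The region on chromosome 4, from 146436380 to 146436831, lay 12198 bp from the zinc finger gene Zfp992, with folds of 2.97 and 3.10 and −log10 q of 1.42 and 2.42. A WT 4 peak was 515 bp from it and a WT 2 peak 1049 bp, the smallest gaps of the 7.

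The remaining 2 lay far from coding genes. On chromosome 5, 79430788 to 79431546 was the widest both-library region. The K49A 2 peak there was 759 bp long and the K49A 1 peak 326 bp, with −log10 q of 2.13 in K49A 1 and 2.50 in K49A 2. The nearest coding gene, Adgrl3, an adhesion receptor of neurons, was 1587538 bp away. On chromosome 12, 9444150 to 9444553 had −log10 q of 2.39 in K49A 1 and 1.61 in K49A 2 and lay 129888 bp from Osr1, a transcription factor of kidney and heart development. Its nearest peak was 6120 bp away in WT 4, and no other WT library had one within 100 kb. No WT peak number was absent around any of the 7, and 2 of them fell in stretches of repeated genes described further on.

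The 2 strongest single-library regions of K49A 1 were sites with absent WT numbers beside them. In K49A 1 the leading region lay in Tmem267, a transmembrane protein gene, on chromosome 13, 119598592 to 119599257, with a −log10 q of 17.1, a fold of 2.52 and a width of 666 bp. Its nearest WT peak, in WT 3, was 1418 bp away. The next lay in Sfi1, which encodes a centrosomal protein, on chromosome 11, 3161477 to 3161772, with a −log10 q of 5.44, and a WT 4 peak was 722 bp away. At both, peak numbers were absent in all 4 WT lists, so a missing WT peak and a removed one cannot be told apart there. A weaker region in Tmem267, from 119494867 to 119495128 with a −log10 q of 2.58, was in the same position.

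The other leading regions of K49A 1 had a −log10 q of at most 3.94. On chromosome 8, 19756684 to 19756895 had 3.94 with a fold of 4.27, and 20273947 to 20274175 had 3.15 with a fold of 3.99. On chromosome 12, 68770747 to 68770946 had 3.63 and lay 386775 bp from Rps29, a ribosomal protein gene. In Gbf1, an activator of Arf GTPases at the Golgi, 46218442 to 46218710 on chromosome 19 had 3.48. A region 127803 bp from Oprm1, the mu opioid receptor gene, on chromosome 10, 6630516 to 6630789, had 3.22. At 2154 bp from Tsc1, a tumour suppressor that restrains mTOR signalling, 28638536 to 28638838 on chromosome 2 had 3.18. Near Tex24 on chromosome 8, 27351880 to 27352079 had 2.98, and near the zinc finger gene Zfp987 on chromosome 4, 146093280 to 146093535 had 2.87. These were single-library calls spread over unrelated genes, and 7 of the 8 lay more than 2 kb from a coding gene.

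In K49A 2 the leading region lay between genes on chromosome 10, 83699381 to 83699724, with a fold of 4.74 and a −log10 q of 9.36, 7177 bp from a WT 3 peak. The next, on chromosome 11, 41632524 to 41632840, had 6.48 and lay 542801 bp from any WT peak. In Bach2, a repressor of B cell differentiation genes, 32356753 to 32356991 on chromosome 4 had 5.90 and lay 95177 bp from a WT peak. These 3 regions had neither a WT peak within 5 kb nor an absent WT number.

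Further K49A 2 regions lay on chromosome 8 at 20018007 to 20018284 (−log10 q 5.30) and, in Gm15319, at 20353653 to 20353943 (4.98). On chromosome 3, 142191660 to 142191925 had 4.90 and lay 22074 bp from Bmpr1b, a BMP receptor gene. On chromosome 4, 64497803 to 64498002 had 4.53 and lay 450787 bp from Tnc, which encodes the matrix protein tenascin C. In Lyst, a regulator of lysosomal trafficking, 13755075 to 13755324 on chromosome 13 had 4.44, with a WT 1 peak 1819 bp away. In Camk1d, a calmodulin-dependent kinase gene, 5490974 to 5491227 on chromosome 2 had 4.20, and peak numbers were absent there in 3 WT lists. On chromosome 9, 57850519 to 57850728 had 4.11 and lay 13671 bp from Arid3b, which encodes a DNA-binding protein. K49A 2, with the longer list, thus had more single-library regions past a −log10 q of 4 than K49A 1.

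The border of the choice was narrow at its edge. Just inside, a K49A 2 region on chromosome 14, 43324731 to 43324953, lay 17 bp from a WT 4 peak. A K49A 1 region on chromosome 8, 71859154 to 71859414, lay 30 bp from a WT 1 peak, and a K49A 2 region on chromosome 15, 25135964 to 25136166, lay 53 bp from a WT 2 peak. Just outside, a K49A 1 peak on chromosome 7, 107369735 to 107370226, overlapped a WT 2 peak by 8 bp. K49A 2 peaks on chromosome 4, 156343299 to 156343643, and on chromosome 16, 3254832 to 3255095, overlapped WT 3 peaks by 33 and 36 bp.

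Most K49A-only regions were not so close to WT peaks. The median distance to the nearest WT peak was 12539 bp over the 449 regions, with quartiles of 3587 and 36985 bp and a range of 17 to 797360 bp. In all, 55 regions (12.2%) had a WT peak within 1 kb, 211 (47.0%) within 10 kb and 37 (8.24%) had none within 100 kb. Within 1 kb there were 9 of the 122 regions of K49A 1 alone (7.38%), 45 of the 320 of K49A 2 alone (14.1%) and 1 of the 7 called in both. One-library regions of WT 1, 2, 3 and 4 had a peak of another WT library within 1 kb in 25.9, 26.6, 25.5 and 8.29% of cases, so WT 4 stood apart from the other WT libraries, K49A 1 lay just below it and K49A 2 between it and the rest. The K49A regions were measured against 4 WT lists and the WT regions against 3. Few one-library K49A regions were near misses of the other K49A list, whose peaks lay within 1 kb of 2 regions of K49A 1 alone and of 3 regions of K49A 2 alone.

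**Figure D3:**
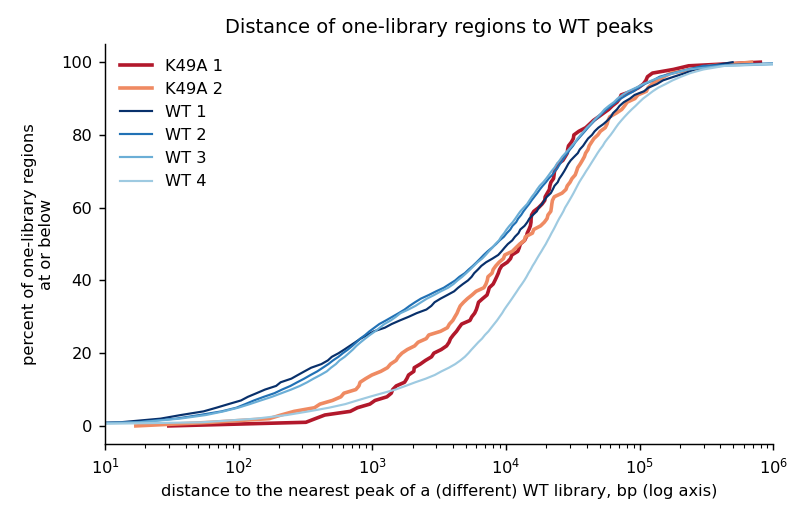
Cumulative percent of one-library regions (y axis) by distance to the nearest peak of a WT library other than their own (x axis, bp, log scale), for K49A 1 and 2 (thick lines) and WT 1 to 4 (thin lines). At 1 kb the K49A lines stand at 7.38 and 14.1%, below WT 1 to 3 at 25.5 to 26.6% and on either side of WT 4 at 8.29%.

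Gene positions did not enter the rule, but absence from the WT lists is not independent of them. Each WT list touched 4659 to 9393 promoter windows, and K49A peaks that overlap WT peaks there were not kept. Positions were compared over regions called in 1 library only. In K49A such a region was absent from all WT lists and the other K49A list. In WT it was absent from the other WT lists and both K49A lists. How far this choice set the shares was not tested. Within 1 kb of either end of a protein-coding gene lay 5 of 122 regions of K49A 1 (4.10%, exact 95% interval 1.34 to 9.31%) and 17 of 320 of K49A 2 (5.31%, 3.12 to 8.37%). The shares were 10.7, 14.6, 16.5 and 12.8% in WT 1 to 4. Both K49A libraries lay below every WT library. The means were 4.71 ± 0.859% in K49A (SD, n = 2) and 13.7 ± 2.51% in WT (SD, n = 4), a difference of -8.95 ± 1.40 percentage points (SE; two-sided exact permutation test, p = 0.133, which is the smallest p that 2 against 4 libraries allow, so 0.05 could not be reached). Gene-end windows made up 2.96% of the annotated span of the chromosomes.

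Between the lists of like name, the gene-end shares were 4.10% in K49A 1 against 10.7% in WT 1, and 5.31% in K49A 2 against 12.8% in WT 4. The WT one-library regions reached down to a weaker p than the K49A ones. When all lists were limited to a −log10 p of 5 or more, the means were 5.76% in K49A and 30.3% in WT. That limit was set before merging, so a region with a weaker peak in another list could then count as one-library. These means therefore cover another set of regions than the main shares. K49A peaks shared with WT lay at gene ends in 14.3% of cases in K49A 1 and 8.06% in K49A 2.

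Promoter windows gave the same order. They held 0 of 122 one-library regions of K49A 1, with an exact 95% upper limit of 2.98%, and 1 of 320 of K49A 2 (0.313%), against 5.26, 8.54, 8.96 and 6.91% in WT 1 to 4. The windows made up 0.341% of the span. None lay on chromosome 18, so regions there could not be counted on a promoter in any library. K49A peaks shared with WT held a promoter window in 4.56% of cases in K49A 1 and 3.23% in K49A 2. This share was not tested separately, since it overlaps the gene-end share.

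In gene bodies the libraries were closer together. Midpoints of one-library regions fell between the ends of a protein-coding gene in 43.4% of cases in K49A 1 and 40.9% in K49A 2, against 42.5, 45.9, 47.5 and 51.3% in WT 1 to 4. The groups overlapped, since K49A 1 lay above WT 1. The difference was -4.60 ± 2.22 percentage points (SE, n = 2 and 4; two-sided exact permutation test, p = 0.267). Gene bodies made up 38.7% of the span. Of one-library regions, 7.38 and 8.44% in K49A 1 and 2 and 11.9, 15.1, 14.4 and 11.0% in WT 1 to 4 lay in lncRNA genes, which made up 8.28% of the span. Pseudogenes held 0.820 and 5.00% in K49A 1 and 2, against 1.87 to 2.46% in WT, with 1.18% of the span.

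**Figure D4:**
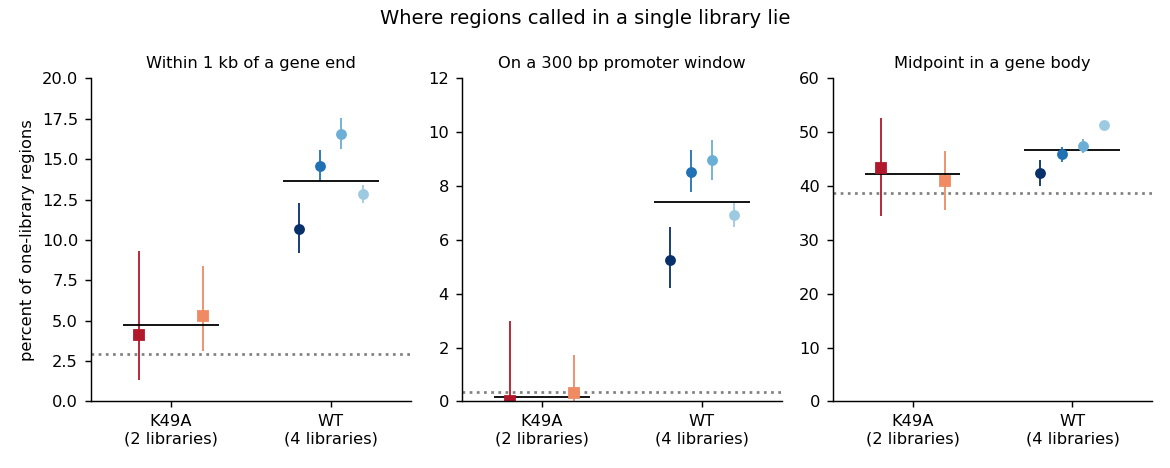
Percent of one-library regions (y axes) within 1 kb of a gene end (left), on a promoter window (centre) and with the midpoint in a gene body (right), per library with exact 95% intervals, and group means as black lines. Dotted lines give the feature's share of the span (2.96, 0.341 and 38.7%); both K49A libraries lie below all WT libraries in the first and second panels, and the groups overlap in the last.

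On the sex chromosomes there were 0 of 122 one-library regions of K49A 1, with the same upper limit of 2.98%, and 10 of 320 of K49A 2 (3.12%). The shares in WT 1 to 4 were 0.805, 2.00, 2.49 and 0.522%. The difference was 0.107 ± 1.63 percentage points (SE, n = 2 and 4; two-sided exact permutation test, p = 0.933), and its sign turned with the handling of the lists. Of the 449 regions, 9 lay on X and 1 on Y, and these chromosomes made up 6.31 and 3.41% of the span. K49A peaks shared with WT lay on the sex chromosomes in 6.84% of cases in K49A 1 and 6.61% in K49A 2. Autosomes held 13.6 regions per 100 Mb (chromosome 6) to 26.1 (chromosome 11), X held 5.36 and Y 1.10. Within 1 Mb of the start of a chromosome's annotation there were 12 of the 449.

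**Figure D5:**
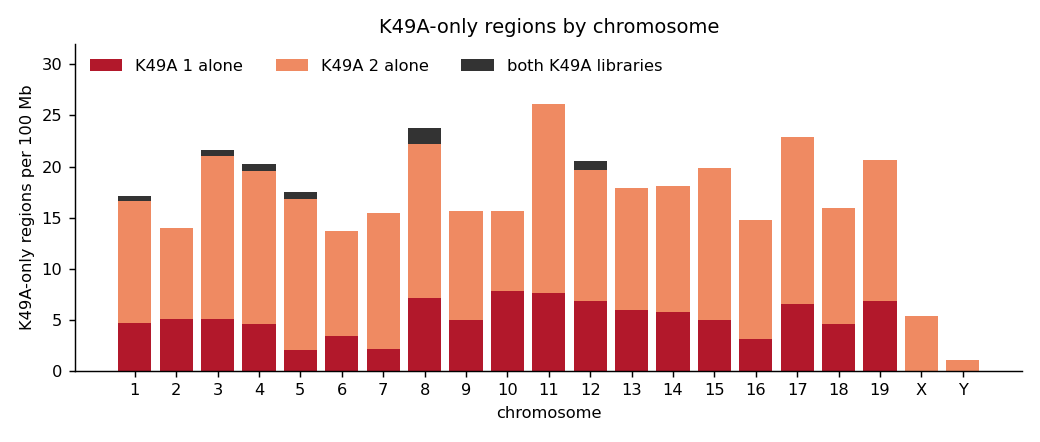
K49A-only regions per 100 Mb (y axis) on each chromosome (x axis), stacked by regions of K49A 1 alone, K49A 2 alone and both K49A libraries. Autosomes range from 13.6 to 26.1, and X (5.36) and Y (1.10) are lowest.

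Over genes, 215 of 21774 protein-coding genes (0.987%) had a K49A-only region in the body or within 1 kb of an end, and 27 (0.124%) had one within 1 kb of an end. Among the 215, 21 clustered protocadherins came from a single region of K49A 2, as they overlap in the annotation. The 2 genes with a both-library region, Wls and Gm7592, have been described. Of the 27, the region was at the finish in 13 genes, at the start in 7 and near both in Retnlg, a short gene of a secreted resistin-like protein, and 6 could not be oriented. These are counts of genes and not of regions, and Pfdn2 and Klhdc9, for example, share a region. Ends were not counted in this way for other peaks, so the balance of finishes and starts has no reference and was not tested.

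The gene-end regions of K49A 1 were all weak. The first, with a −log10 q of 2.39, lay between the start of Cilp2, a cartilage matrix gene, and the finish of Yjefn3. The next, with 1.97, lay at the finishes of Pfdn2, a subunit of the prefoldin chaperone, and Klhdc9. Tbc1d24, a synaptic vesicle trafficking gene, had 1.87 at its finish, Map4, a microtubule-associated protein gene, 1.37 at its start, and Gm6729 a lower value at its finish. In K49A 2 the strongest was shared by Gm36327 and Gm40365 with 3.00. Among those after it were Gm51571 with 2.27 and Psg22, a pregnancy-specific glycoprotein gene, with 2.02. Then came 9830107B12Rik with 2.00, Ms4a4a, a membrane protein of immune cells, with 1.90, Tmem258, a subunit of oligosaccharyltransferase, with 1.80, and Kcnc1, a voltage-gated potassium channel gene, with 1.79. Tcp10c, a testis gene of the t-complex, had 1.78, Sh3gl3, an endophilin gene, 1.49, and Gm5373 1.33. Each of them was weaker than the 4.22 reached in K49A 1 past the finish of Wls.

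In gene bodies away from the ends, the leading genes of K49A 1 after Tmem267, Sfi1 and Gbf1 were Fyb2 with a −log10 q of 2.57, Grik3, a kainate receptor subunit gene, with 2.56, and Capn15, a calpain gene, with 2.54. In K49A 2, after Bach2, Gm15319, Lyst and Camk1d, they were Tmem132c with 4.06 and Sprr2a2, a small proline-rich protein of the skin barrier, with 3.76. Genes with a region were long, with a median of 111 kb against 17.2 kb for all coding genes. A longer gene covers more of the span, so the medians are not a like comparison. By midpoint, 185 of the 449 regions (41.2%) lay in gene bodies, which made up 38.7% of the span. The median also counts the 21 clustered protocadherins of 1 region as separate genes. More than 1 region was found in 9 genes, with 4 in Zfp978 and 2 each in Lyst, Tmem267, Gm7592, Gm5373, Gm8126, Fhit, Dpp10 and Pcdh15.

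Gene lists that fit sperm and development were counted against the 0.987% of all coding genes with a K49A-only region. Of 20 lists, 12 had no such gene, and in each of these except the olfactory receptors that share corresponds to less than 1 gene. The share takes no account of gene length. Olfactory receptor genes are short, with a median of 0.951 kb against 17.2 kb for all coding genes, and made up 0.162% of the span. The empty lists were olfactory receptors (0 of 1109), ribosomal proteins (0 of 80), clustered histones (0 of 73), Hox genes (0 of 39), imprinted genes (0 of 52), and meiotic and early germ cell genes (0 of 52). They also included sex chromosome spermatid families (0 of 75), the Speer family (0 of 10), the Pramel family (0 of 49) and beta-defensins (0 of 42). Of the 10 Speer genes, 3 lie in the chromosome 5 stretch that was left out and could not be counted. Markers of other cells that sperm preparations can hold were empty as well, with 0 of 89 epididymal epithelium genes and 0 of 46 leukocyte genes.

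Among the lists with a hit, developmental transcription factors had 1 of 196 genes, and pluripotency and early embryo genes 1 of 71. In both lists the gene was Eomes, a T-box factor of mesoderm and trophoblast, with a K49A 2 region near its finish (chromosome 9, 118487047 to 118487403, −log10 q 1.03, 335 bp from a WT peak). Developmental signalling had 1 of 99, Wnt9b, a Wnt ligand, with 1.56 in K49A 2. Spermatid and sperm genes had 3 of 108, all in K49A 2, namely Spata1 with 3.71, Dnah12, an axonemal dynein heavy chain gene, with 1.42, and Spata13 with 1.21. Vomeronasal receptors had 1 of 350, Vmn2r117, with 2.94.

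Long genes of neural adhesion and synapses had 9 of 71 genes with a region, and a median length of 1098 kb. Their 12 regions were 2.67% of the 449, and the list made up 2.92% of the span. Examples were Fhit, at a common fragile site, with 1.81 in K49A 1 and 1.77 in K49A 2 at different places, Dpp10, a potassium channel accessory gene, with 1.74 in K49A 2, Cdh12, a cadherin gene, with 1.68 in K49A 1, and Pcdh9, a protocadherin gene, with 1.63 in K49A 2 (all −log10 q). Zinc finger genes had 4 of 424, Zfp978 with 2.83, Zfp993 with 2.14, Zfp580 with 1.64 and Zfp423 with 1.37. They held 7 regions, or 1.56% of the 449, where the list made up 0.546% of the span, and 4 of the 7 were in Zfp978. The clustered protocadherins had 21 of 57 genes from 1 region of K49A 2, since these genes share their last exons and overlap in the annotation. By region, then, Zfp978 was the gene with the most.

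Some of the regions came in groups. In 7 stretches at least 3 regions followed each other within 100 kb, and these held 33 of the 449 (7.35%) and 2 of the 7 called in both K49A libraries. On chromosome 4, 147223800 to 147416739, the stretch at Zfp978 and Zfp988 held 7 regions, all of K49A 2, with −log10 q of 1.15 to 2.83. With 10 kb added on either side, this stretch had 3 and 14 peaks in K49A 1 and 2, against 11, 17, 16 and 31 in WT 1 to 4. The 7 regions lay 374 to 2207 bp from a WT peak. Peaks were thus called here in every library, and the other K49A peaks of the stretch shared a region with a WT peak.

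On chromosome 8, 20273947 to 20497698 around Gm15319 held 6 regions, of which 1 was in both K49A libraries. There were 7 and 17 peaks in K49A 1 and 2, against 10, 15, 19 and 14 in WT 1 to 4. On chromosome 14, 43256909 to 43359822 at Gm8126, Gm8127 and 1700001F09Rik held 5 regions, with 2 and 12 peaks in K49A 1 and 2 against 8, 14, 15 and 14 in WT 1 to 4. On chromosome 17, 13318925 to 13427097 at Tcp10c held 4 regions, with 1 and 6 peaks in K49A 1 and 2 against 2, 9, 9 and 17 in WT 1 to 4, and WT peak numbers were absent there. The stretches were chosen for their K49A-only regions, most of them from K49A 2, so the K49A peak numbers in them follow in part from that choice.

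The stretch on chromosome 1, 85457221 to 85588915, over Gm7592, Gm2427, Sp110 and Sp140 held 3 regions, with 4 and 5 peaks in K49A 1 and 2 against 2, 4, 2 and 15 in WT 1 to 4. On chromosome 3, 92217743 to 92283149, the small proline-rich genes Sprr2a1, Sprr2a2 and Sprr2a3 held 4 regions. There, K49A 1 and 2 had 2 and 4 peaks, against 1, 1, 2 and 1 in WT 1 to 4. On chromosome X, 75643801 to 75700048, with 2 pseudogenes and no coding gene, held 4 regions of K49A 2, with 0 and 5 peaks in K49A 1 and 2 against 1, 2, 2 and 1 in WT 1 to 4. Members of a repeated family can share reads, and how such reads were assigned was not stated, so the position of a peak within a family is uncertain.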

How the data were processed

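Sperm MNase-seq had given 6 lists of broad peaks, 2 from K49A and 4 from WT, which were grouped by the titles and genotype labels. The submitters' processing notes name FastQC, BWA, Picard, SAMtools, MACS2 and mm10. Tool versions, settings and any input control were left unstated, or not given in the sources used here. Deposited values per peak are a fold enrichment (a ratio to background), a −log10 p, a −log10 q and a score, all the authors' own values. The score column was not used. Total depth is unknown. The animals behind each list are not stated, so p-values measure only spread between libraries, which may be technical.

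Intervals were merged where they overlapped or touched (a gap of 0 bp), and coordinates are 1-based. Genes came from a RefSeq table of GRCm38.p6, the assembly behind mm10. Of its rows, 348 (113 of them protein-coding) carry coordinates of scaffolds and were left out, which left 21774 protein-coding genes. A region was at a gene end if it overlapped 1 kb either side of an end, and in a gene body by its midpoint. Spans run from the first to the last gene or peak of a chromosome. Shares were compared per library by exact permutation over the splits of 6 libraries into 4 and 2, two-sided. Exact intervals are Clopper-Pearson at 95%, and with limits on counts of 0 they cover counting error only. Python 3.11.15, pandas 2.3.3, numpy 2.4.6, scipy 1.17.1 and matplotlib 3.10.9 were used, and the merging, the shares and the test were tested on simulated data.

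The regions, the 20 gene lists and the tests were chosen with earlier results of these data known. Regions named are those in both K49A libraries, the 10 strongest of each K49A library by −log10 q and the 3 nearest to either side of the rule's border. Genes named are the 12 strongest at ends and the 6 strongest in bodies per K49A library, and up to 4 per list; 1 gene that the rule names is not reported here. Genes with several regions, the gene of the promoter shown, the weaker Tmem267 region, Retnlg and the nearest genes of named regions were named after their values were seen. Alternatives were another merging gap, a distance to WT, stricter limits, equal list lengths, the chromosome 5 stretch kept in, a wider gene-end window, each library left out, and pairing by the replicate number. The numbers 1 and 2 occur in both genotypes, but nothing in the labels says that they mark a shared animal, day or batch.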

Additional observations from a re-analysis of the deposited data

Results flagged for a closer look

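Regions called in WT 4 alone had a peak of another WT library within 1 kb in 8.29% of cases, where WT 1 to 3 had 25.9, 26.6 and 25.5%. WT 4 was far from the other 3 WT libraries, as its gap to the nearest of them was 0.938 of the whole range of the group. In K49A 1 and 2 the share for their own one-library regions was 7.38 and 14.1%, measured to all 4 WT lists. The position of WT 4 was found among 11 measures of the one-library regions that were checked in this way, and chance alone sets apart about 1 in 20 groups.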

How the results depend on the processing

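Of 87 alternative values, 75 kept their direction or, for counts, stayed within 1.5 times, 9 counts moved further and 3 shares changed sign. The number of regions in both K49A libraries moved most, from 7 to 17 when all lists were limited to a −log10 p of 5 or more, to 95 with the 700 strongest peaks of each list, and to 21 with the chromosome 5 stretch kept in. Leaving out a WT library gave 11 to 14. With the 700 strongest peaks, 291 regions were in K49A 1 alone. With 1 library left out, the total of 449 ranged from 130 without K49A 2 to 503 without WT 2, and it was 511 with that limit on −log10 p and 646 with the 700 strongest peaks. That these counts rise when WT lists are shorter or fewer follows from the rule.

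The gene-end difference kept its sign throughout, at -16.3 to -7.84 percentage points with 1 library left out, -24.5 with −log10 p limited to 5 or more, -57.9 with the 700 strongest peaks and -9.56 with windows of 5 kb. Every alternative still chose regions by their absence from WT lists. The constant sign therefore does not show how far that choice set the shares, which was not tested. The gene-body difference was -13.6 under the same limit and -40.1 with the 700 strongest peaks. Both limits were set before merging, so regions with a weaker peak in another list could enter the one-library sets. The differences under these limits therefore describe other sets of regions than the main ones. The sex chromosome difference turned to -0.0306 with peaks merged up to 500 bp apart and to -0.120 with no WT peak allowed within 1 kb, and ran from -1.47 without K49A 2 to 1.60 without K49A 1; the cause was not tested. With the replicate number as a block (2 pairs by title), the differences were -7.91 at gene ends, -1.99 in gene bodies and 0.159 on sex chromosomes, and the smallest p that 2 pairs allow is 0.5 (exact sign-flip permutation). Taking peaks absent from 3 WT lists in every library, chosen after seeing the data, gave -7.52, -5.95 and 0.594. Depth is unknown and the lists end at a q limit, so absence from a list is not absence of signal.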
